A study of Homo sapiens with 12 samples.

Results

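The promoters of protein-coding genes that were accessible in both a prostate and a breast cancer cell line are described here. A region counted as such a promoter when it was an accessible region of the DU-145 table on an autosome, had a 100-bp bin within 1 kb of the transcription start site (TSS) of a protein-coding GENCODE v44 gene, and shared at least 1 bin with the BT-549 table. Of the 79177 accessible regions of DU-145, 12433 (15.7%) met the rule, and they overlapped 12306 of the 46298 accessible regions of BT-549. They held TSSs of 12577 of the 18773 autosomal protein-coding genes. Another 2670 of the 15103 autosomal promoter regions of DU-145 shared no bin with BT-549, and 462 promoter regions on X and Y were left out by the rule.

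Accessibility was measured by ATAC-seq, in which the Tn5 transposase cuts and tags open chromatin, in 12 libraries. DU-145 is a castration-resistant prostate cancer (CRPC) line and BT-549 a triple-negative breast cancer (TNBC) line. The cells carried a tet-inducible MUC1shRNA, a short hairpin RNA against the transmembrane mucin MUC1. Vehicle cells received 0.1% DMSO and the others doxycycline (DOX), both for 7 days, with 3 libraries in each of the 4 groups. All 4 groups carried the hairpin vector. Cells with a control hairpin and DOX were not analysed here, so an effect of DOX itself and of silencing MUC1 cannot be told apart. Each line stood for its tumor type alone. A change in the share of cells with an open promoter and a change in every cell cannot be told apart in bulk libraries either.

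A promoter is the stretch of DNA at which RNA polymerase II and the general transcription factors assemble. Most promoters of broadly used genes lie in CpG islands and stay free of nucleosomes in nearly every cell type, held open by factors such as SP1, NF-Y, NRF1 and the ETS family. Enhancers far from genes are more often specific to a cell type and are commonly bound by factors such as AP-1, the JUN and FOS dimers. Promoters of interferon-stimulated genes commonly carry the interferon-stimulated response element (ISRE), which is bound by IRF proteins.

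The reference sequence at the most accessible bin shows these elements in single promoters. The first set holds HMGCS1 (cholesterol synthesis) and G3BP1 (stress granules), which were among the 6 regions of highest mean coverage over the 4 groups, JUN and MUC1 as studied genes, and MAP2K7 (a kinase of the JNK pathway), which differed most clearly between the lines. The sequences were read from GRCh38, are written 5′ to 3′ on the strand of the gene, and leave out annotated exons. Capitals mark matches on either strand to the GC box (GGGCGG), the CCAAT box (CCAAT), the ETS core (CCGGAAG), the NRF1 core (GCATGCGC), the cyclic AMP response element (CRE, TGACGTCA), the AP-1 site (TGACTCA), the TATA box (TATAAA), the YY1 core (AAGATGGC) and the ISRE (GAAA, any 2 bases, GAAA). Adjacent matches can overlap and then run together.
HMGCS1, chr5:43313571-43313730, minus strand: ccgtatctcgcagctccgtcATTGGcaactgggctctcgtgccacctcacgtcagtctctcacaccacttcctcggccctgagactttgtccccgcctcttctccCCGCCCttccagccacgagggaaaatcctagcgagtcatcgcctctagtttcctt
G3BP1, chr5:151771671-151771830, plus strand: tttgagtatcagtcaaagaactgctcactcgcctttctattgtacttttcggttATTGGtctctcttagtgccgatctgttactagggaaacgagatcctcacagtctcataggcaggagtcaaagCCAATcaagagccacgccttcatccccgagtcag
JUN, chr1:58784071-58784230, minus strand: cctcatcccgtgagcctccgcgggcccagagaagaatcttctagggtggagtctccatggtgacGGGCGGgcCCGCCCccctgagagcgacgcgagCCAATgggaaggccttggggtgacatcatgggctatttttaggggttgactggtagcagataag
MUC1, chr1:155193571-155193730, minus strand: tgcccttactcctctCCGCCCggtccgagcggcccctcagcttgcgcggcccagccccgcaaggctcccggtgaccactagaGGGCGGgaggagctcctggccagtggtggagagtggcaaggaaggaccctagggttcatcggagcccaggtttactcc
MAP2K7, chr19:7903671-7903830, plus strand: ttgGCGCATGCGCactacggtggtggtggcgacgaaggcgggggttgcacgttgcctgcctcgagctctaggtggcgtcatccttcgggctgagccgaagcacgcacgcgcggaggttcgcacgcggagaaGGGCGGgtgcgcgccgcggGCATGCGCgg
HMGCS1, G3BP1, JUN and MAP2K7 were read just upstream of the TSS, with the bin center at -139, -133, -104 and -92 bp. The MUC1 bin lay farther upstream, at -736 bp.

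The second set holds regions that opened or closed with DOX in both lines. TBC1D4 (a RAB GTPase-activating protein of glucose transport), STON2 (endocytosis) and CHST11 (a chondroitin sulfotransferase) opened, and NCOA7 (a nuclear receptor coactivator) closed.
TBC1D4, chr13:75365871-75366030, minus strand: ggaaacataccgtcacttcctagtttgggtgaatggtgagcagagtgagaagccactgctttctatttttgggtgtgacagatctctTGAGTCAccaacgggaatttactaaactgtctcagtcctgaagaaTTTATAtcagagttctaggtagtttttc
STON2, chr14:81400471-81400630, minus strand: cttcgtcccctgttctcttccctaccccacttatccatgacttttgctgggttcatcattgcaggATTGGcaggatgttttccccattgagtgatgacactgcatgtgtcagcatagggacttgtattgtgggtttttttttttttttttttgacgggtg
CHST11, chr12:104588671-104588830, plus strand: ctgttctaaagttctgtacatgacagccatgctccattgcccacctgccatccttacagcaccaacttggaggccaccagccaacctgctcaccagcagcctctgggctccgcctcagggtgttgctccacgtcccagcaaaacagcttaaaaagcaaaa
NCOA7, chr6:125919064-125919223, plus strand: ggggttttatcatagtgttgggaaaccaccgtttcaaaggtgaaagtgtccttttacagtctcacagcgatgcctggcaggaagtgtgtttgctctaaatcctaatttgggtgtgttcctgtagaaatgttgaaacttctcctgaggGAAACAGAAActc
The TBC1D4 bin lay inside the gene, 1064 bp downstream of the TSS and outside its exons, and held an AP-1 site. STON2, CHST11 and NCOA7 were read at -227, -97 and -73 bp, and NCOA7 held an ISRE.

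The last sequence comes from an interferon-stimulated gene that closed with DOX in BT-549 cells, IFIH1 (the RNA sensor MDA5).
IFIH1, chr2:162318701-162318839, minus strand: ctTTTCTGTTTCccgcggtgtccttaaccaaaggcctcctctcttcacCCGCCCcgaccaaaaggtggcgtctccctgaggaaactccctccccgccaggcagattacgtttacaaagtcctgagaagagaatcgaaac
IFIH1 held an ISRE and a GC box. The stretches read in the same way at OAS2, MX1 and IFIT3, other closing genes of this kind, held no ISRE and are not printed. A match describes the letters and not a bound factor.

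The promoter regions were wide and rich in GC. Their median width was 1600 bp (700 to 3300 bp from the 5th to the 95th percentile), against 800 bp in the 18452 shared regions farther than 1 kb from a TSS, called distal here. The median GC content of the highest bin was 68% (quartiles 60% and 74%) and its median CpG number was 9, against 50% and 1 in the distal regions. A GC box lay in 73.2% of the 300-bp windows around the highest bin, against 16.6% of distal windows and 20.9% of the windows of all autosomal DU-145 regions. ETS, NRF1, YY1 and CRE matches were likewise more frequent than in distal windows, at 17.2% against 2.99%, 4.91% against 0.845%, 4.24% against 1.5% and 2.77% against 0.558%. AP-1 and TATA matches were rarer, at 5.08% against 31.1% and 3.23% against 12.5%. The CCAAT box was about as frequent in promoter (33.2%) as in distal (31.1%) windows, but it lay in 55.5% of the 10% of promoters with the highest DU-145 coverage. These shares describe sequence and were not tested.

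The most accessible bin lay at the TSS in most regions. Its center was a median of 31 bp upstream (offset -31 bp, quartiles -121 and 36 bp), and 54.9% of the regions had it within 100 bp of the TSS. It was the same 100 bp in both lines in 7095 regions (57.1%) and within 100 bp in 85.2%. In 631 regions (5.08%) the highest bins lay over 500 bp apart, so that the readings of the lines then came from different DNA. In 553 regions (4.45%) the highest bin itself lay beyond 1 kb of a TSS. Of the 12433 regions, 10728 held TSSs of 1 gene, 1615 of 2 genes and 90 of 3 or more, and 1466 (11.8%) held genes on both strands, where a reading cannot be given to either gene.

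The summed coverage differed between the groups. The bin values, mean fragment coverage per bin, summed to 12370094 to 24001285 in the DU-145 vehicle libraries, 16337380 to 25232000 with DOX, 9142900 to 13606129 in the BT-549 vehicle libraries and 2502510 to 3267024 with DOX. The BT-549 vehicle mean was 4.12 times the DOX mean, and whether these libraries were sequenced less deeply or their values scaled is not given in the sources used here. One rounded unit was worth 2.18 to 2.88 in normalized coverage there. Of the epithelial markers, EPCAM, CDH1, KRT8, KRT18, KRT19 and GRHL2 had regions in DU-145 and none in BT-549, and ESRP1 and CLDN4 had them in both. Of the 9 mesenchymal markers, CDH2 and TWIST1 had regions in BT-549 alone and the other 7, VIM among them, in both lines. The prostate genes KLK2, KLK3 and HOXB13 had none in either line, and the blood markers had none.

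Coverage was scaled to a common effective library size within each line. Every bin is 100 bp long, so bin length does not set the levels of different promoters apart. DNA copy number, which was not measured, and base composition were not removed from these levels. The median level was 109 in DU-145 vehicle cells (mean of 3 libraries per region, 5th to 95th percentile 13.4 to 343) and 82.4 with DOX. In BT-549 it was 33.4 (6.94 to 99.7) with vehicle and 38.4 with DOX. Distal regions had medians of 24.98 and 27.8 in DU-145 and of 12.6 and 10.9 in BT-549. Promoters that were high in DU-145 tended to be high in BT-549. The vehicle levels on the log2 scale had a Pearson r of 0.71 over the 12433 promoters and of 0.41 over the distal regions, as a description, since promoters of a library share its depth and base composition.

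The promoters were ranked by their mean normalized coverage over the 4 groups of both lines. BRMS1L (a SIN3 deacetylase complex protein) ranked highest and also had the highest mean over the 6 DU-145 libraries. It read 1380, 1255 and 1263 with vehicle in DU-145 cells and 900, 789 and 887 with DOX. The groups did not overlap. The shared promoter of ATOX1 and G3BP1 read 970, 758 and 775 with vehicle and 594, 439 and 438 with DOX. HMGCS1 read 978, 839 and 827 and then 614, 494 and 522. The other 3 of the 6 highest in this ranking were the CRIP1 and TEDC1 region, ARHGAP5 and ZNF687. All 6 were lower with DOX in DU-145, by 0.54 to 0.77 on the log2 scale (adjusted p between 4.25e-10 and 1.09e-05, edgeR). Under offsets that remove trends with the level (loess), BRMS1L, TEDC1, HMGCS1, ARHGAP5 and ZNF687 had log2 fold changes above 0, at 0.26, 0.07, 0.06, 0.25 and 0.16, so the direction of these very high promoters depended on the scaling.

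The first comparison asks how promoter accessibility differed when MUC1 silencing was induced in DU-145 cells. Large changes were rare at promoters and small decreases were common. With the cutoffs of the study's methods, a fold of 2 and an adjusted p under 1e-05, 78 promoters opened (0.627%) and 136 closed (1.09%), where 11.1% and 4.82% of all DU-145 regions did. At an adjusted p under 0.05, 300 were higher and 7466 (60.0%) lower, against 26.5% and 24.7% of all regions. The median log2 fold change was -0.42 (quartiles -0.59 and -0.20), and it was 0.00 in the distal regions and over all regions. The spread was narrow, since 72.3% of the promoters lay within 1.5-fold of no change. The decrease moved with the scaling: relative to the median of all regions, the promoters stood at -0.42 with TMM factors and with library totals, and at -0.13 with loess offsets or with the GC trend removed from each library. With library totals the median over all regions was itself 0.14. Of the called promoters, 36.4% opened in the main fit, 61.2% with library totals, 60.6% with loess offsets, 48.2% when the mean of all bins of a region was tested, 21.2% with the GC trend removed and 21.01% with DESeq2. Without the second vehicle library 43 opened.

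**Figure D1:**
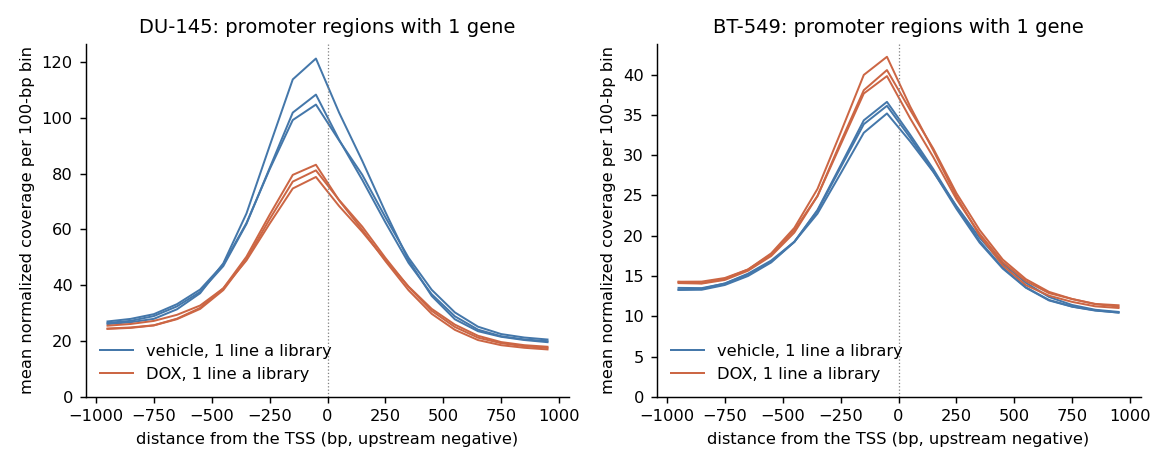
Mean normalized coverage per 100-bp bin against the distance from the TSS in bp (upstream negative) over promoter regions with 1 gene, 9346 for DU-145 (left panel) and 9221 for BT-549 (right panel), with a line per library, blue for vehicle and orange for DOX. In the bin from -100 to 0 bp the DU-145 libraries stand at 111 ± 8.69 with vehicle and 81.1 ± 2.19 with DOX (SD, n = 3), and the BT-549 libraries stand at 36.0 ± 0.731 and 40.9 ± 1.23.

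The profile around the TSS shows where the difference lay. In the bin from -100 to 0 bp the mean DU-145 coverage was 111 ± 8.69 (SD, n = 3) with vehicle and 81.1 ± 2.19 with DOX, a log2 ratio of -0.46. At -1000 to -900 bp it was 26.5 ± 0.476 and 24.8 ± 0.629, a log2 ratio of -0.10. The separation was thus widest at the crest of the profile and narrow at its foot. The median log2 fold change also went down with the level, from -0.12 in the 20% of promoters with the lowest coverage to -0.56 in the 20% with the highest.

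GC content ran with the fold change, more steeply away from promoters in DU-145 and less steeply in BT-549. Promoters whose highest bin had 30 to 40% GC had a median log2 fold change of -0.18 in DU-145, and those of 60 to 70% GC had -0.45. Distal regions went from 0.37 to -0.20 over the same classes. In BT-549 the corresponding medians were -0.32 and 0.17 for promoters and -0.32 and -0.05 for distal regions. The DU-145 promoter medians did not fall steadily with GC, at -0.46 for 50 to 60% and -0.35 for 80 to 90%. The part of base composition in the fold changes was not tested beyond the fit with the GC trend removed.

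**Figure D2:**
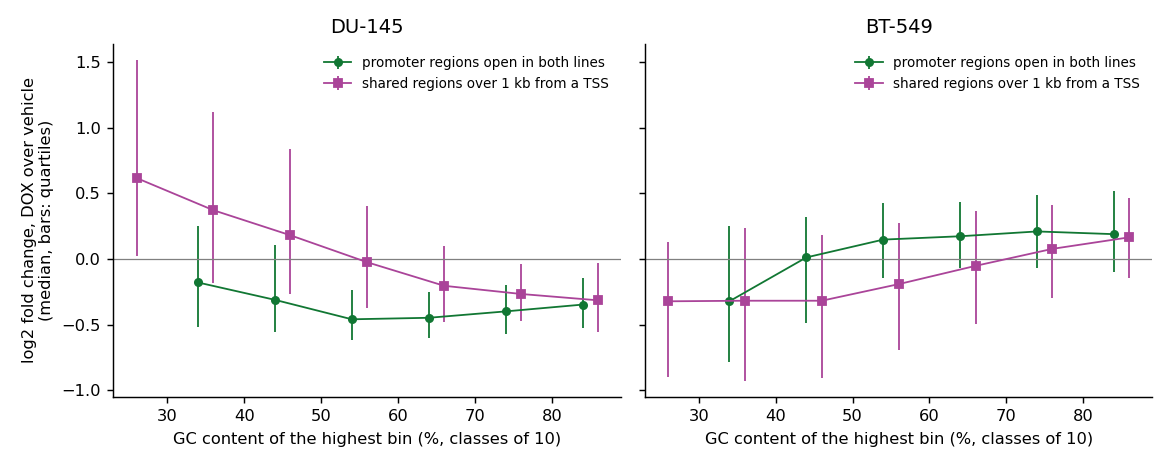
Median log2 fold change of DOX over vehicle against the GC content of the highest bin in classes of 10%, for promoter regions (green circles) and shared distal regions (purple squares), for DU-145 (left panel) and BT-549 (right panel), with bars for the quartiles. At 60 to 70% GC the promoters stand at -0.45 in DU-145 and 0.17 in BT-549, and the distal regions at -0.20 and -0.05.

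The few promoters that opened in DU-145 differed in sequence from the rest. The 78 had a median GC content of 49% and their highest bin lay a median of 616.5 bp from the TSS, beyond 1 kb in 22 of them, whereas the 136 that closed had 62% and 85 bp and the others 68% and 36 bp. An AP-1 match lay in 35 of the 78 windows (44.9%) and in 11 of the 136 (8.09%), against 5.08% of all promoter windows. GC boxes lay in 6 of the 78 (7.69%) and 76 of the 136 (55.9%). Of the opening promoters with a sequence printed above, TBC1D4 carried such an AP-1 site there, and STON2 and CHST11 did not.

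NQO2, a quinone reductase, opened the most clearly. Its region read 5.87, 13.9 and 11.1 with vehicle and 106, 99.7 and 88.7 with DOX, which is 3.13 ± 0.22 (SE) on the log2 scale (edgeR's quasi-likelihood test, adjusted p = 1.27e-38). The NQO2 bin was centered at -1036 bp, so the opening was read upstream of the TSS and not at it. The bin that is highest in BT-549 is a different one. RANBP3L (a RAN-binding protein) had 5.87, 5.74 and 4.76 and then 75.9, 57.3 and 58.0 (3.47 ± 0.28), but at the bins present in both tables its log2 fold change was 0.59 (adjusted p = 0.302). A lack of overlap between vehicle and DOX libraries was a condition for naming these promoters and is no separate result.

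FGD6, an activator of the GTPase CDC42, rose from 17.6, 22.96 and 11.1 to 104, 95.5 and 113 (2.48 ± 0.19). PDCD1LG2, which encodes the PD-1 ligand PD-L2, rose from 17.6, 11.5 and 3.17 to 44.2, 50.2 and 52.9 (2.15 ± 0.24). MAP3K7CL (2.2 ± 0.19) and a second RIGI start (2.46 ± 0.30) completed the 6 named openings. RIGI encodes a cytosolic RNA sensor, and this region lies inside the gene, away from its main promoter, which read -0.56 (adjusted p = 0.000183).

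TK2, a mitochondrial thymidine kinase, closed the most, from 64.6, 77.9 and 63.5 to 2.26, 2.12 and 0.853 (-5.26 ± 0.31, adjusted p = 2.5e-50). The bin lay 1015 bp downstream of the TSS, and the region's bins shared with BT-549 gave the opposite direction (1.17, adjusted p = 5.08e-07). The decrease at TK2 was thus read in a bin that the BT-549 table does not hold.

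SEMA4B, a semaphorin, fell from 125, 108 and 95.2 to 22.6, 15.6 and 16.2 (-2.63 ± 0.18). MB (myoglobin) fell from 104, 87.7 and 96.8 to 22.6, 16.98 and 17.1 (-2.35 ± 0.19). The other named closings were AHCYL2 (-2.16 ± 0.17), S100A8, a calcium-binding protein of the calprotectin complex (-2.16 ± 0.21), and POU2F3, the transcription factor of tuft cells (-2.08 ± 0.23). The libraries did not overlap in any of the 78 opening and 136 closing promoters of DU-145. They did not overlap either in 8050 of the 12219 promoters called in neither direction, so a lack of overlap is not particular to the called ones.

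In the main fit the promoters of all 5 studied genes were lower in DU-145, where 60.0% of all promoters were. The hairpin acts on the MUC1 transcript, so the promoter of MUC1 is no check of silencing. MUC1 read 197, 174 and 152 with vehicle and 128, 123 and 104 with DOX (-0.56 ± 0.13, adjusted p = 5.44e-05), with no overlap. JUN read 322, 273 and 252 and then 235, 187 and 200 (-0.45 ± 0.12, adjusted p = 0.000555). EGR1 (-0.64 ± 0.12), ARID1A, the BAF complex subunit (-0.80 ± 0.15), and NOTCH1 (-0.32 ± 0.14, adjusted p = 0.0377) were lower as well. With loess offsets the values were 0.07 for JUN, 0.00 for EGR1, 0.02 for NOTCH1 and -0.16 for MUC1 (adjusted p = 0.229), all short of the threshold. There ARID1A stayed lower at -0.53 (adjusted p = 0.000725). NOTCH1 also fell short with library totals (adjusted p = 0.228), the GC trend removed (0.335) and DESeq2 (0.119). It fell short too without vehicle replicate 1 or 3, or without DOX replicate 1 or 2 (0.0681 to 0.168). MUC1 fell short with the GC trend removed (-0.24, adjusted p = 0.0576). With the mean of all bins NOTCH1 (0.881), MUC1 (0.154) and ARID1A (0.441) fell short.

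The same comparison in BT-549 cells had the opposite balance. Past the cutoffs for this line, a fold of 2 and an adjusted p under 0.01, 354 promoters opened (2.85%) and 108 closed (0.869%), where 3.69% and 6.14% of all BT-549 regions did. At an adjusted p under 0.05, 1811 were higher and 345 lower, against 9.36% and 10.9% of all regions. The median log2 fold change was 0.18 (5th to 95th percentile -0.65 to 0.95), against -0.19 in the distal regions. Relative to all regions, the promoter median stood at 0.23 with TMM factors, 0.20 with loess offsets and 0.12 with the GC trend removed. Of the called promoters, 76.6% opened in the main fit, 66.5% with loess offsets, 66.8% with the GC trend removed, 62.5% with the mean of all bins and 85.3% with DESeq2. Without the third DOX library 1118 were higher and 201 lower, without the second DOX library 1199 were higher, and without the first DOX library 208 were lower and 63 closed.

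Of the promoters with a mean coverage of at least 20, CHST11 opened the most, from 12.1, 15.9 and 10.8 to 105, 115 and 74.2 (2.87 ± 0.22, adjusted p = 1.18e-20). The shared promoter of BCCIP and UROS, a heme synthesis enzyme, rose from 11.1, 7.33 and 6.18 to 27.5, 49.0 and 37.1 (2.13 ± 0.31). AXIN1 and ZNRF3, both negative regulators of WNT signaling, opened too. AXIN1 rose from 11.1, 9.16 and 11.6 to 46.8, 25.9 and 54.6 (2.03 ± 0.28). ZNRF3 rose from 12.1, 10.99 and 12.4 to 49.5, 57.6 and 48.0 (2.11 ± 0.26). STRA6 (the receptor of retinol-binding protein, 2.06 ± 0.27) and PCBP3 (an RNA-binding protein, 2.01 ± 0.27) completed the 6, which were named only if their libraries did not overlap.

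Promoters that closed in BT-549 were less rich in GC than those that opened, at a median of 56.5% against 68.5%. AP-1 matches lay in 29 of the 108 closing windows (26.9%) and 21 of the 354 opening windows (5.93%). An ISRE lay in 19 of the 108 (17.6%) and in 2.63% of all promoter windows read at the BT-549 bin. GC boxes lay in 31.5% of the closing and 80.2% of the opening windows.

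Complement and antiviral genes were among the largest closings. CFB, complement factor B, fell from 71.1, 76.9 and 58.0 to 16.5, 5.76 and 13.1 (-2.52 ± 0.29). C1S, a protease of the classical complement pathway, fell from 82.6, 81.2 and 73.4 to 8.25, 20.2 and 17.5 (-2.36 ± 0.27). Here too a lack of overlap between the libraries was a condition for being named. An upstream start of RSAD2, the antiviral protein viperin, fell from 43.2, 39.1 and 37.9 to 5.50, 5.76 and 8.73 (-2.54 ± 0.37). PLCD1 (a phospholipase C, -2.54 ± 0.28), C11orf86 (-2.71 ± 0.37) and TPD52L1 (-2.37 ± 0.33) were the others. The C11orf86 bin was centered at -1126 bp from the TSS. PLCD1 and TPD52L1 were read farther upstream than their highest DU-145 bins, which lay at -109 and -1388 bp.

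The list of type I interferon response genes was read at 33 member regions with 35 of its 41 genes, 1 region for each gene. In BT-549, 17 were lower, 2 higher and 14 did not pass the test, with a median log2 fold change of -0.79 against 0.18 over all promoters, and 9 closed past the cutoffs (0.869% of all promoters did). The median stayed between -0.89 and -0.75 in every setting tried, leaving out each library included, while the number of lower regions was 12 to 18, or 5 when the mean of all bins of a region was tested. The list was known from earlier results of these data to move and is no independent evidence of direction. In DU-145, 22 of the 33 were lower and 0 higher with a median of -0.45, where 60.0% of all promoters were lower with a median of -0.42. With the GC trend removed the list had 23 lower and a median of -0.49, where all promoters had 39.5% lower and a median of -0.20. With loess offsets the list had 9 lower, 2 higher and a median of -0.11, where all promoters had 16.6% lower and a median of -0.08.

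**Figure D3:**
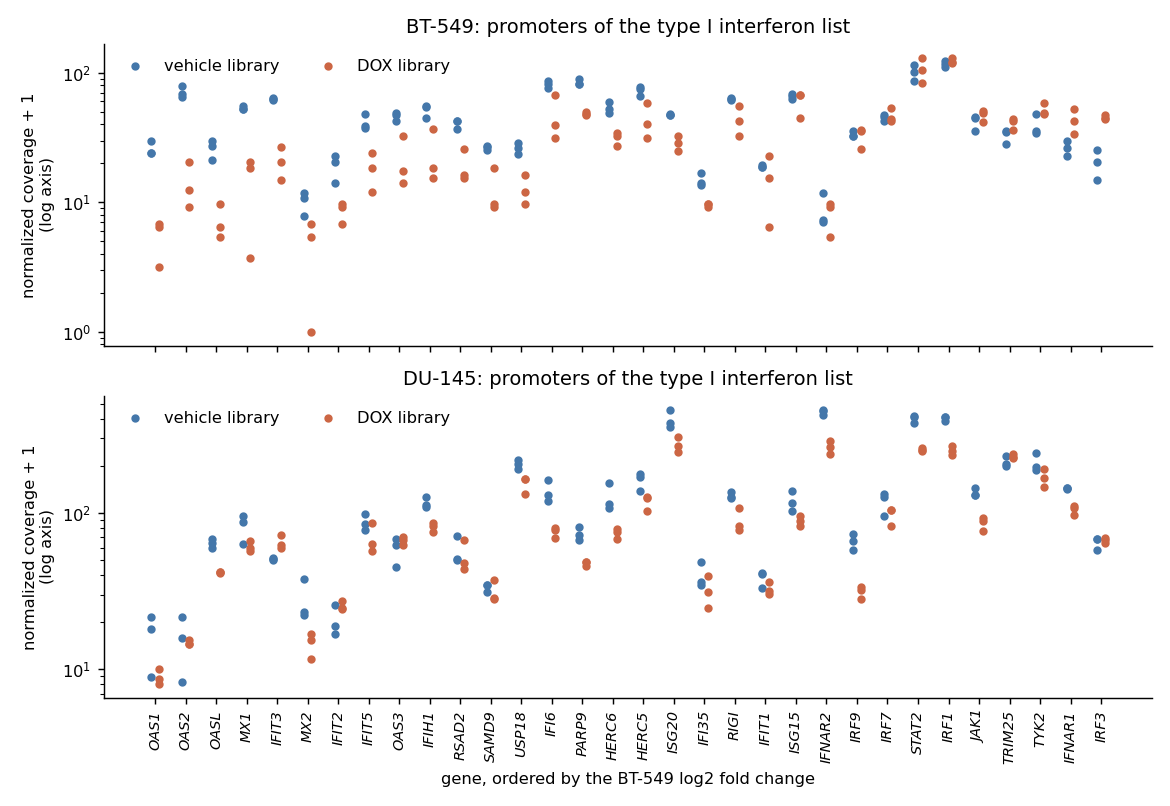
Normalized coverage plus 1 (log axis) of promoter regions of the type I interferon list, all but 1 of its regions, in BT-549 (top) and DU-145 (bottom), with a point per library, blue for vehicle and orange for DOX, and genes ordered by the BT-549 log2 fold change. OAS1, at -2.51 in BT-549, stands at the left and IRF3, at 1.17, at the right, and in DU-145 no such order is seen.

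All 9 closing regions are given here, a choice made after their values were seen. The oligoadenylate synthetases make the second messenger that activates RNase L. OAS1 fell from 23.2, 28.7 and 23.2 to 5.50, 5.76 and 2.18 (-2.51, adjusted p = 1.22e-05). OAS2 fell from 78.4, 67.2 and 64.1 to 8.25, 11.5 and 19.6 (-2.36, adjusted p = 5.23e-11). In both, every DOX library stood below every vehicle library. OASL fell from 26.3, 28.7 and 20.1 to 5.50, 8.64 and 4.37 (-2.06). OAS3 fell from 47.9, 46.4 and 41.7 to 16.5, 31.7 and 13.1 (-1.21). All 4 members of this family in the list closed, with no overlap of libraries. In BT-549 the libraries did not overlap in 107 of the 108 closing promoters. They did not overlap either in 3826 of the 11971 called in neither direction, so a lack of overlap is not particular to these genes.

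MX1, a GTPase that blocks viral replication, fell from 51.6, 51.3 and 54.9 to 2.75, 17.3 and 19.6 (-1.93). IFIT3 and IFIT5 encode antiviral proteins of the same family. IFIT3 fell from 62.1, 61.1 and 62.6 to 13.8, 25.9 and 19.6 (-1.65), and IFIT5 from 37.9, 47.0 and 36.3 to 11, 23.1 and 17.5 (-1.24). IFIH1 fell from 53.2, 43.4 and 54.9 to 35.8, 14.4 and 17.5 (-1.17), and the region shared by CMPK2 and RSAD2 from 41.6, 36.0 and 41.7 to 24.8, 14.4 and 15.3 (-1.14). In each of these 5 regions too the lowest vehicle library stood above the highest DOX library.

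Receptors and IRF factors of the list, with STAT2, are given next, also a choice made after their values were seen. IRF3, a factor upstream of interferon whose region also holds the BCL2L12 start, opened from 19.5, 24.4 and 13.9 to 44.01, 43.2 and 45.8 (1.17, adjusted p = 0.000198). IFNAR1, a receptor chain, was higher (0.73, adjusted p = 0.0250), and IFNAR2 (-0.12), STAT2 (0.05), IRF1 (0.09), IRF7 (0.03) and IRF9 (-0.06) did not pass the test. In DU-145 IRF9 was lower, from 71.9, 64.8 and 57.1 to 27.2, 31.1 and 32.4 (-1.08, past the cutoffs). The interaction test, which asks whether the DOX effect differed between the lines, gave OAS2 -2.52 (adjusted p = 9.18e-07), IFIT3 -1.85 (2.64e-07) and MX1 -1.70 (4.11e-05). IFIT5, read at its highest DU-145 bin and not its highest BT-549 bin, had a difference of -0.0043 (0.994).

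Of the studied genes in BT-549, JUN and NOTCH1 passed the test. NOTCH1 opened past the cutoffs at its highest BT-549 bin, from 27.4, 27.5 and 24.0 to 49.5, 46.1 and 63.3 (1.02 ± 0.22, adjusted p = 0.000269). At the bin that is highest in DU-145, 200 bp away, the BT-549 libraries, scaled together with those of DU-145, read 44.5, 58.0 and 50.8 with vehicle and 39.0, 44.6 and 65.0 with DOX, so the groups overlapped there. JUN rose from 119, 118 and 125 to 231, 173 and 162 (0.63 ± 0.12, adjusted p = 4.09e-05). MUC1 (-0.38 ± 0.16, adjusted p = 0.0717), EGR1 (0.23 ± 0.12, 0.167) and ARID1A (0.29 ± 0.18, 0.261) did not pass the test. MUC1 passed it in 4 alternative settings, with loess offsets at an adjusted p of 0.00272. The effect of DOX on JUN differed between the lines by 0.88 (adjusted p = 4.53e-05). That on NOTCH1 did not pass the test of the difference, read at the highest DU-145 bin (0.16, adjusted p = 0.713).

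The effects of DOX in the 2 lines were close to uncorrelated across promoters. Over the 12433 regions the Pearson r of the log2 fold changes was 0.03 and Spearman's rho 0.04, as a description, and 0.05 with the GC trend removed. Past the cutoffs, 5 promoters opened in both lines, 5 closed in both and 2 went in opposite directions, where 78 and 136 were called in DU-145 and 354 and 108 in BT-549. The shared openings were 6.41% of those of DU-145 and 1.41% of those of BT-549, and the shared closings 3.68% and 4.63%. In the distal regions 191 opened in both lines (11.1% and 25.5%) and 147 closed in both (24.1% and 10.3%). At an adjusted p under 0.05, 1227 were lower in DU-145 and higher in BT-549, 184 lower in both, 35 higher in both and 18 higher in DU-145 and lower in BT-549.

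**Figure D4:**
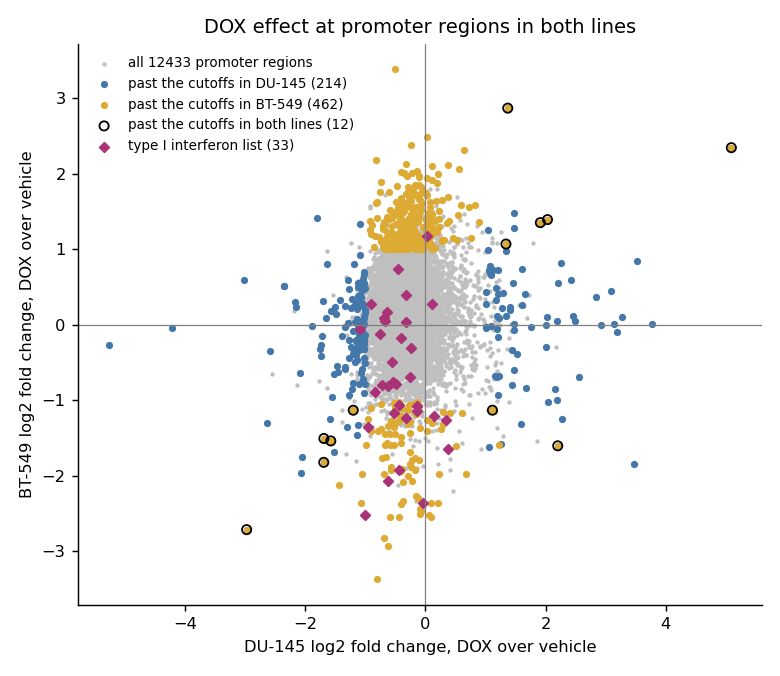
Log2 fold change of DOX over vehicle in BT-549 against that in DU-145 for 12433 promoter regions (grey), with those past the cutoffs in DU-145 in blue, in BT-549 in yellow and in both lines circled, and the type I interferon list as diamonds. The cloud is centered at -0.42 on the DU-145 axis and 0.18 on the BT-549 axis without a slope (Pearson r 0.03), and most diamonds lie low on the BT-549 axis.

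Of the promoters that opened in both lines, CHST11 read 54.3, 45.9 and 44.4 with vehicle and 127, 127 and 119 with DOX in DU-145 (1.37 ± 0.15), and rose more in BT-549 (difference 1.30, adjusted p = 4.98e-05). TBC1D4 rose from 23.5, 22.1 and 31.7 to 114, 97.6 and 98.1 in DU-145 (2.03 ± 0.18) and from 27.4, 20.8 and 27.0 to 71.5, 57.6 and 67.7 in BT-549 (1.39 ± 0.21). STON2 rose from 70.5, 87.7 and 76.2 to 224, 197 and 188 (1.34 ± 0.14) and from 27.4, 24.4 and 21.6 to 41.3, 69.2 and 48.0 (1.07 ± 0.23). IGFN1 (1.91 and 1.35) and ADAMTS18, a metalloprotease (5.09 and 2.34), were the others, the latter from 1.47, 0 and 0 in DU-145 vehicle cells, where the fitted fold depends on the prior count.

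NCOA7 closed by nearly the same amount in each line. It fell from 94.0, 95.1 and 111 to 36.2, 31.8 and 32.4 in DU-145 (-1.57 ± 0.16) and from 69.0, 67.8 and 73.4 to 27.5, 23.1 and 21.8 in BT-549 (-1.54 ± 0.24), and the difference of -0.17 did not pass the test (adjusted p = 0.742). SAMD11 (-1.69 and -1.82, read 2576 bp from a TSS) and RHOQ, a small GTPase (-1.69 and -1.51), closed in both lines as well. So did C11orf86 (-2.97 and -2.71), read at -1126 bp from the TSS. The promoters that went in opposite directions were TOR3A (2.2 and -1.60), whose bins in the lines lie in different parts of the BT-549 region, and LETM2 (1.11 and -1.13), read at the same bin.

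The test of the difference between the lines called 866 promoters (6.97%) with a higher DOX effect in BT-549 and 165 (1.33%) with a lower one. Of the 31661 shared regions, 4.27% and 10.8% were called. The median difference was 0.38 over the promoters and -0.51 over the distal regions. MAP2K7 read 176, 148 and 136 with vehicle and 137, 132 and 125 with DOX in DU-145 (-0.23 ± 0.13, adjusted p = 0.135). In BT-549 it rose from 25.3, 30.5 and 22.4 to 116, 86.4 and 114 (2.01 ± 0.19), a difference of 2.03 (adjusted p = 1.91e-14). The BT-549 groups lay far apart and the DU-145 groups were close.

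KLF10, a transcription factor induced by TGF-β, went from 376, 288 and 314 to 203, 211 and 201 in DU-145 (-0.65 ± 0.12) and from 118, 115 and 121 to 237, 256 and 221 in BT-549 (1.004 ± 0.11). A second SEMA4B start (difference 2.26) and the GMFG and SAMD4B region (1.80) completed the 4 highest. On the other side, PDCD1LG2 opened in DU-145 and was lower in BT-549, from 56.3, 55.0 and 54.9 to 27.5, 43.2 and 24.0 (-0.85 ± 0.23), a difference of -2.68 (adjusted p = 2.43e-12). NREP (-2.49), LETM2 (-2.45) and NQO2 (-4.71) were the other 3, and NQO2 was read at its highest DU-145 bin, which is not the highest in BT-549.

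In vehicle cells, 667 promoters were higher and 3724 lower in BT-549 than in DU-145 past a fold of 2 and an adjusted p under 0.01, where 16.4% and 23.1% of the shared regions were. The median difference by chromosome ran from -1.32 on chromosome 15 to 0.12 on chromosome 13, and DNA copy number, which was not measured, and accessibility cannot be told apart there. The effects of DOX varied less by chromosome, with medians of -0.53 to -0.29 in DU-145 and 0.08 to 0.37 in BT-549. Chromosome 19 had the highest share of called promoters in BT-549 (8.85%) and a low share in DU-145 (0.426%), where of the others chromosome 18 alone was lower.

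Promoters of housekeeping complexes had medians of the same sign as the promoters as a whole in the main fit. Over all promoters 60.0% were lower in DU-145 and 14.6% higher in BT-549, and with loess offsets 16.6% were lower and 6.78% higher in DU-145, with a median of -0.08. The counts of this and the following lists stand beside those shares and call nothing particular to a list. Of 75 promoters of cytosolic ribosomal proteins, which build the ribosome, 59 were lower and 0 higher in DU-145 (median -0.47), and 26 were higher and 0 lower in BT-549 (median 0.40). RPS14 read 282, 222 and 214 and then 151, 108 and 137 in DU-145 (-0.87 ± 0.13), with no overlap. In BT-549 it read 66.3, 55.0 and 61.0 and then 79.8, 83.6 and 52.4 (0.20 ± 0.18), with overlap. Mitochondrial ribosomal proteins (46 of 74 lower, then 11 higher), complex I subunits (20 of 34, then 9), proteasome subunits (26 of 32, then 4), replication factors (27 of 33, then 4) and splicing factors (24 of 34, then 9 higher and 1 lower) had DU-145 medians of -0.54 to -0.44 and BT-549 medians of 0.13 to 0.37. With loess offsets the DU-145 medians of these 6 lists shrank to between -0.15 and -0.05, with 21 of the 75 cytosolic ribosomal promoters lower and 4 higher. Wherever a count of 0 is given for a list (edgeR), 0 to 2 regions passed an unadjusted p under 0.05 in that direction and 0 passed with DESeq2.

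The BAF and PBAF remodelers were lower at 17 of 25 promoters in DU-145 (median -0.47, against 60.0% lower and -0.42 over all promoters) and higher at 7 and lower at 1 in BT-549 (0.29). With loess offsets 4 were lower and 3 higher in DU-145 (median -0.10). SMARCA4, the ATPase of the complex, read 141, 99.2 and 119 and then 86.0, 84.9 and 78.5 in DU-145 (-0.49 ± 0.14), and in BT-549 it opened from 25.3, 25.04 and 22.4 to 66.0, 72.0 and 50.2 (1.33 ± 0.22). ARID2, a PBAF subunit, was lower in DU-145 (-0.69 ± 0.12) and higher in BT-549 (0.60 ± 0.19). The difference between the lines was 1.19 for SMARCA4 (adjusted p = 0.000131) and 1.11 for ARID2 (8.54e-05).

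AP-1 factors were lower at 13 of 17 promoters in DU-145 (median -0.39) and higher at 6 and lower at 1 in BT-549 (0.28), and the DU-145 median was 0.06 with loess offsets. JDP2 (-0.78 ± 0.16), ATF7 (-0.56 ± 0.12) and ATF2 (-0.54 ± 0.12) had the smallest p in DU-145, and ATF2 was at 0.03 with loess offsets. In the NOTCH pathway 17 of 25 were lower and 1 higher in DU-145 (median -0.37, and -0.04 with loess offsets), and 4 were higher and 0 lower in BT-549 (0.26). ADAM17, the protease that cleaves NOTCH receptors, went from 486, 348 and 370 to 209, 221 and 237 in DU-145 (-0.84 ± 0.12) and from 57.4, 59.2 and 60.3 to 118, 107 and 80.8 in BT-549 (0.77 ± 0.17), a difference of 1.40 (adjusted p = 2.47e-08). HES1, a NOTCH target, had -0.81 ± 0.12 and 0.57 ± 0.16, and RBPJ, the DNA-binding partner of NOTCH, -0.73 ± 0.12 and 0.30 ± 0.17 (adjusted p = 0.219). With loess offsets 2 promoters of each list were lower in DU-145, and 1 of the AP-1 list and 3 of the NOTCH list higher.

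Hippo pathway promoters were lower at 26 of 32 in DU-145 (median -0.57), and NUAK2, a kinase gene of the list, fell past the cutoffs from 181, 172 and 165 to 63.4, 65.8 and 68.2 (-1.39 ± 0.14), read 4094 bp downstream of the TSS. CCN2, a YAP target, had -0.89 ± 0.15. In the TGF-β pathway 25 of 33 were lower and 1 higher (median -0.52), among them ID1 (-1.04 ± 0.12), from 332, 265 and 302 to 135, 140 and 156, and ID3 (-0.98 ± 0.14), read 3362 and 4450 bp downstream of the TSS. In BT-549 these lists had 7 higher and 2 lower, and 7 higher and 0 lower, with medians of 0.25 and 0.28. With loess offsets the DU-145 medians were -0.21 and -0.16.

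Of the NRF2 response, 17 of 21 were lower in DU-145 (median -0.50) and 4 higher in BT-549 (0.22), and with loess offsets 6 were lower and 1 higher in DU-145 (-0.16). KEAP1, the NRF2 inhibitor, fell from 189, 198 and 138 to 77.0, 80.6 and 75.9 in DU-145 (-1.19 ± 0.13) and rose from 21.6, 25.04 and 24.0 to 30.3, 46.1 and 45.8 in BT-549 (0.81 ± 0.25, adjusted p = 0.0129). Heat shock protein promoters were lower at 18 of 23 (median -0.56) and then higher at 10 and lower at 1 (0.30), and with loess offsets at 6 lower and 2 higher in DU-145 (-0.07). Over all promoters 60.0% were lower in DU-145, and 16.6% with loess offsets. HSPB1 had -1.18 ± 0.13 in DU-145, and HSPA5, the chaperone of the endoplasmic reticulum, -0.81 ± 0.12 in DU-145 and 0.51 ± 0.15 in BT-549.

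Histone genes stood apart from these lists in size. Of 28 promoter regions of replication-dependent histones, which lie in clusters and are poor in GC at their highest bin (median 44.5%), 9 were lower and 1 higher in DU-145 (median -0.14), and 2 were higher and 0 lower in BT-549 (median -0.21). The DU-145 median was 0.08 with loess offsets and -0.49 with the GC trend removed, so its size and sign depended on the scaling. Among 417 promoters of zinc finger genes named ZNF, 243 were lower and 4 higher in DU-145 (-0.39, against 60.0% lower and -0.42 over all promoters), and 50 were higher and 2 lower in BT-549 (0.17). With loess offsets 53 were lower and 19 higher in DU-145 (-0.04). ZNF451 read 373, 301 and 325 and then 196, 170 and 172 in DU-145 (-0.89 ± 0.12).

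Promoters with genes on both strands had higher coverage than those of 1 gene, with medians over all 6 libraries of 129 against 91.1 in DU-145 and 48.6 against 34.4 in BT-549. Past the cutoffs, 9 of the 1466 were called in DU-145 (0.614%) against 1.88% of the 1-gene promoters, and 3.89% against 3.74% in BT-549. The median log2 fold changes were -0.49 against -0.41 and 0.26 against 0.16. The NDUFA2 and IK pair is an example, with 242, 207 and 213 and then 109, 112 and 129 in DU-145 (-0.91 ± 0.13).

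**Figure D5:**
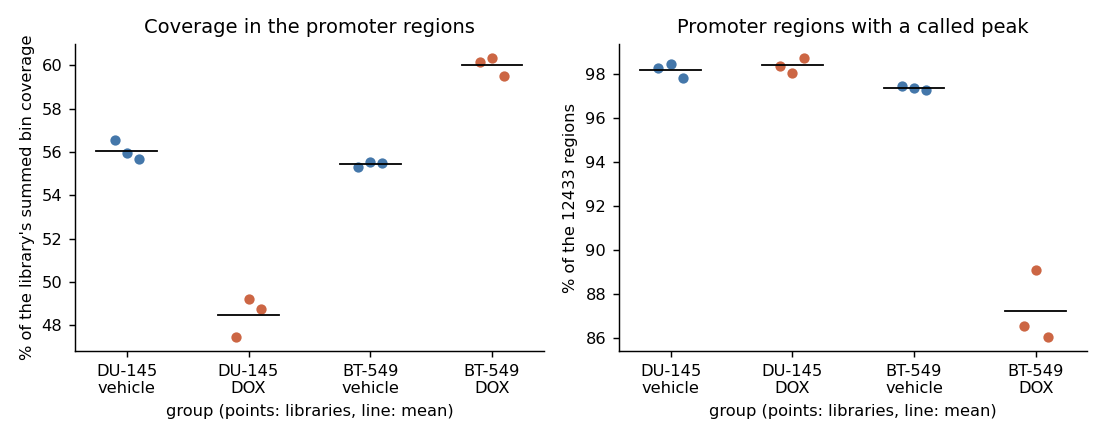
Share of each library's summed bin coverage that lay in the promoter regions (left, %) and share of the 12433 regions with a called peak summit (right, %), with a point per library and a line at the group mean, for the vehicle (blue) and DOX (orange) groups of each line. The coverage share goes from 56.0% to 48.5% in DU-145 and from 55.4% to 60.0% in BT-549, and the summit share is low only in the BT-549 DOX libraries.

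The share of the coverage that lay in the promoters needs no scaling between libraries. In DU-145 it was 56.5%, 55.9% and 55.7% with vehicle and 47.4%, 49.2% and 48.7% with DOX, a difference of -7.58 percentage points with no overlap (p = 0.1 in an exact two-sided permutation test, which cannot go lower with 3 against 3). In BT-549 it was 55.3%, 55.5% and 55.5% and then 60.2%, 60.3% and 59.5%, a difference of 4.56 points, also without overlap (exact p = 0.1). The effects differed between the lines by 12.1 points. An exact permutation of the treatment labels within each line gave p = 0.005, the smallest its 400 relabellings allow. Its null is no DOX effect in either line, so it does not test whether the effects of the lines were equal. The promoters made up 30.6% of the bins of the DU-145 table and 41.5% of those of BT-549.

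The peak lists, called by the authors in each library, gave a second reading, although the regions were themselves built from such peaks. A summit lay in 98.3%, 98.5% and 97.8% of the promoters in DU-145 vehicle libraries and in 98.4%, 98.1% and 98.7% with DOX (exact p = 0.5). In BT-549 it lay in 97.5%, 97.4% and 97.3% and then in 86.5%, 89.1% and 86.0% (exact p = 0.1). The BT-549 DOX libraries, whose summed coverage was the lowest, also had a summit in a mean of 44.7% of distal regions, against 93.1% with vehicle. The part of coverage in this drop was not tested. In all, 9776 promoters (78.6%) had a summit in 12 of 12 libraries, and the median fold enrichment over background at their peaks was 52.1 with vehicle and 43.0 with DOX in DU-145. In BT-549 it was 25.6 and 12.4.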

How the data were processed

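ATAC-seq was performed by the authors on 50000 cells per library in 3 biologically independent replicates per group. They aligned fragments to GRCh38 with BWA, removed duplicates with Picard and called regions in each replicate with MACS2 (2.2.7.1 in the submitters' processing notes, which also name MACS3) at a q-value of 0.05. Regions found in at least 3 replicates were split into 100-bp bins. The deposited bin values are estimated counts, the mean fragment coverage of a bin per library. Their sums differed between libraries, and whether any were scaled is not given in the sources used here. The deposited peak lists, made per library and not pooled, give the fold enrichment over background as a ratio and p-values and q-values on a -log10 scale.

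The planned test assumed whole counts. The estimated counts were rounded, each region was read at the bin of highest mean coverage, and all regions of a table with a total of at least 10 were tested with edgeR 4.0.16 (quasi-likelihood, robust, TMM factors from all bins, R 4.3.3) with Benjamini-Hochberg adjustment. All 12433 regions passed the filter in both lines. The SE is the log2 fold change over the square root of the F statistic. Where several BT-549 regions matched, the one with the highest bin was read. Differences between lines came from the interaction of line and DOX over 12 libraries, at the highest bin present in both tables. Single values per library were compared by exact two-sided permutation tests. Intervals and SEs cover the spread between these libraries, whose replicates were grown in culture.

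Named were MUC1, NOTCH1, EGR1, JUN and ARID1A, and per line the 6 promoters with the largest opening and the 6 with the largest closing change past the cutoffs, without overlap of libraries and with a mean normalized coverage of at least 20. Also named were up to 6 per direction past the cutoffs in both lines, up to 4 per direction in opposite directions, 4 per direction of smallest interaction p, the 6 of highest coverage and up to 3 per gene list of smallest adjusted p. The members and lists were chosen with earlier results of these data known. A region takes the name of the gene with the TSS nearest its highest bin, and a gene can have several regions. In simulated data with a fold of 2, 55% of changed DU-145 regions and 16% of changed BT-549 regions were recovered. With a fold of 4 the shares were 94% and 65%. Recovered means an adjusted p under 0.05 in the right direction, without a fold cutoff. Recovery past the study's cutoffs was not measured. Alternatives were other scalings, DESeq2 1.42.0, other filters, bins and TSS sets, a replicate block and leaving out each library. One promoter that closed in both lines, one of the interferon list, one marker gene and one promoter sequence are not reported here.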

Additional observations from a re-analysis of the deposited data

Results flagged for a closer look

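The DOX effect differed between the lines, by the interaction test past a fold of 2 and an adjusted p under 0.01 (edgeR), in 866 promoters with a higher and 165 with a lower effect in BT-549. These were 6.97% and 1.33% of the promoters, where 4.27% and 10.8% of the 31661 shared regions were called. The share of summed coverage that lay in the promoters gave a difference of 12.14 percentage points between the lines. The exact permutation p of 0.005 rests on a null of no DOX effect in either line and does not test that difference by itself. Each named promoter past these limits follows with its log2 difference, BT-549 minus DU-145, read at a bin present in both tables.

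A higher effect in BT-549 was found for MB (3.20), UROS (2.26), SEMA4B at its second start (2.26), AXIN1 (2.14), MAP2K7 (2.03), PCBP3 (1.99), GMFG (1.80), ZNRF3 (1.52), KLF10 (1.46) and CHST11 (1.30). Of the gene lists, ADAM17 (1.40), KEAP1 (1.25), CCN2 (1.22), SMARCA4 (1.19), ID3 (1.14), ARID2 (1.11), HSPA5 (1.11), HES1 (1.09) and POLE (1.04) belong here, as does ARHGAP5 (1.102).

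A lower effect in BT-549 was found for NQO2 (-4.71), the second start of RIGI (-3.49), TOR3A (-3.40), RSAD2 at its upstream start (-2.94), PDCD1LG2 (-2.68), OAS2 (-2.52), NREP (-2.49), LETM2 (-2.45), CFB (-2.25), MAP3K7CL (-2.24), TPD52L1 (-2.14), TK2 (-2.002) and C1S (-1.49). Groups of 3 libraries are too small to test single libraries as outliers.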

How the results depend on the processing

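In DU-145, 78 promoters opened in the main fit, 29 with DESeq2, 27 with the mean of all bins and 127 with the TSSs of all transcripts, and 43 to 68 when a library was left out (43 without the second vehicle library). Of the 136 closing, 62 were called with library totals, 56 with loess offsets and 29 with the mean of bins, and 95 to 178 without a library. The 300 higher became 474 with library totals, 843 with loess offsets, 652 with the GC trend removed, 163 with DESeq2, 189 with the mean of bins and 459 with all transcripts, and 215 to 312 without a library. The 7466 lower became 2067 with loess offsets, 4912 with the GC trend removed and 3941 with the mean of bins, and 6521 to 7201 without a library. In BT-549, the 354 opening became 221 with DESeq2 and 20 with the mean of bins (285 to 380 without a library), and the 108 closing became 38, 12 and, with all transcripts, 182 (63 to 108 without a library, 63 without the first DOX library). The 1811 higher became 1177 with loess offsets, 851 with DESeq2 and 119 with the mean of bins (1118 without the third DOX library to 1744), and the 345 lower became 574, 125 and 33 (201 without the third DOX library to 358). Differences between lines went from 866 above to 544 with library totals, and from 165 below to 89 with DESeq2 (794 to 1251 and 120 to 173 without a library). The coverage share differed by -7.95 to -7.07 points in DU-145 and 4.40 to 4.81 in BT-549 without a library, and the summit share by 0.0174 to 0.374 and -11.1 to -9.55. The causes of these differences were not tested.

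Of 117 results for named promoters, 1891 of 1989 recomputations kept direction and side of the threshold, 82 lost the threshold, 4 gained it and 12 changed sign. With loess offsets in DU-145 the log2 fold change was 0.0197 for NOTCH1, 0.000449 for EGR1, 0.0656 for JUN, 0.26 for BRMS1L, 0.0701 for TEDC1, 0.0579 for HMGCS1, 0.25 for ARHGAP5, 0.16 for ZNF687 and 0.0309 for ATF2. EGR1 in BT-549 was at -0.02302 with loess offsets and -0.31 with the mean of bins, and TK2 in DU-145 at 1.17 with the shared bins.

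Samples with the same replicate number did not deviate together (r of -0.014 to 0.055 over 6 pairs of libraries). With the replicate number as a block, 76 promoters opened and 135 closed in DU-145, 306 were higher and 7870 lower, 355 opened and 105 closed in BT-549, 1879 were higher and 330 lower, and 897 and 166 differed between the lines. The filter filterByExpr left out 293 promoters in DU-145 and 1384 in BT-549, and DESeq2 gave no adjusted p for 266 in BT-549. The summed coverage was lowest in the BT-549 DOX libraries, and a promoter not called in BT-549 is not shown to be unchanged.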
